A study of Mus musculus with 12 samples.

Results

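The genes described here are 44 genes of the autophagy machinery together with the TFE transcription factors that regulate it, taken by gene symbol from the RNA-seq count table of murine bone marrow-derived macrophages (BMDMs). The genes were listed by name and known role, and the rule sets no threshold on the measured values. They were, however, chosen with earlier results of these data known. All 44 were among the 24421 symbols of the table, and all 44 were among the 11468 genes that passed the filter on low counts. The levels of these genes were compared between macrophages given the BET bromodomain inhibitor iBET (I-BET151) or its solvent DMSO, each in the presence of ovalbumin alone (Ova) or of ovalbumin immune complexes (IC).

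Bone marrow from 3 C57BL/6 mice, called A, B and C, was cultured for 5 days with 100 ng/mL M-CSF, with fresh medium on day 3, and each mouse gave 1 library to each of the 4 groups (12 libraries, 3 per group). No genetic modification and no age is given for the mice. Cells of the DMSO Ova and DMSO IC groups received 5% DMSO per the labels, and cells of the iBET Ova and iBET IC groups received 5.0 µM I-BET151, in all cases for 4 hours of stimulation. The labels give no DMSO level for the iBET groups. If the solvent differed between groups, its part in an iBET comparison cannot be told apart from that of the drug. Whether the drug came first is uncertain, since the labels have it added along with the stimulus and the methods of the study have it added earlier.

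Autophagy delivers cytoplasmic material to lysosomes. The ULK1 kinase complex starts it, a class III PI3-kinase complex marks the site of membrane growth, WIPI proteins, ATG2 and ATG9 supply lipid, and 2 conjugation systems attach proteins of the ATG8 family (the LC3 and GABARAP proteins) to the membrane, where cargo receptors such as SQSTM1 dock. TFEB, TFE3 and MITF are related transcription factors that bind E-box elements in lysosomal and autophagy genes and are held in the cytoplasm by the nutrient-sensing kinase mTORC1, and FLCN is a regulator of that step. In macrophages autophagy acts in the clearance of microbes and in the handling of phagocytosed material, and BET proteins read acetylated histones at the genes they help to transcribe.

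Library totals ran from 7549849 to 17387639 counts. The ribosomal precursor Rn45s took 77.4% of the DMSO Ova library of mouse A, against 1.41% to 7.83% in the other 11 libraries. The 44 genes had 6233 counts in that library and 30778 to 75406 in the others, so the Ova results are also given without it. All 8 macrophage markers were detected in every group, with a summed level of 6325 to 8484 CPM (counts scaled to a common library total) and Lyz2 as the most abundant. Of them Mertk was called higher with iBET in both stimulations (log2 0.77 ± 0.25 and 1.25 ± 0.26), in Ova only with the DMSO Ova library of mouse A included, and Lyz2 in IC (0.41 ± 0.12). The summed level of 6 neutrophil markers was 7.70 to 41.2 CPM with overlapping ranges in the 4 groups, the dendritic cell, lymphocyte, erythroid and stromal lists each reached at most 1.87 CPM, and the 4 mast cell markers were at 0 throughout. Zbtb46, a dendritic cell marker, was called higher with iBET in Ova (edgeR adjusted p = 0.00816) between 0.197 ± 0.277 and 0.889 ± 0.394 CPM, with overlapping libraries, and the part of these markers in the results was not tested. In these bulk libraries a lower level cannot be told apart between fewer cells of a type and less RNA per cell.

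iBET raised a large share of the autophagy machinery and lowered 2 of its TFE regulators. In the Ova groups 19 of the 44 genes were higher with iBET, 2 were lower and 23 did not pass the test, and in the IC groups 23 were higher, 3 were lower and 18 did not pass. Over all genes tested, iBET raised 17.1% and lowered 14.2% in Ova, and raised 19.0% and lowered 15.8% in IC. The log2 fold changes of the 44 genes had a median of 0.35 in Ova and of 0.35 in IC, where the medians over all genes were 0.02 and -0.00. A gene was called where the adjusted p of the edgeR quasi-likelihood test was under 0.05, with adjustment over all genes tested.

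The calls were largely shared by the 2 stimulations, which have no library in common but come from the same mice. Called higher in both were 18 genes, against 14.3% of all genes tested, and called lower in both were 2 genes, Tfeb and Mitf, against 11.6%. Tfe3 was called in Ova alone, 6 genes were called in IC alone (Atg13, Pik3r4, Uvrag, Atg16l1 and Flcn higher, Atg7 lower) and 17 were called in neither. The difference between the 2 iBET responses was tested as an interaction, and edgeR called 0 of the 44 genes. DESeq2 also called 0, and 0 had an unadjusted edgeR p below 0.05. Over all genes edgeR called 0% in that test.

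With DESeq2 size factors in place of TMM the Ova calls split into 16 higher and 4 lower, with Pik3c3 and Atg7 joining the lower genes. DESeq2 itself also gave 16 higher and 4 lower in Ova, and 21 and 3 in IC. With Rn45s removed the Ova calls were 17 higher and 3 lower, and with 10 counts required in every library 17 and 4. They were 15 and 2 with the 2 groups fitted alone, and 26 and 4 with 1 surrogate variable. The calls over all genes in Ova moved as well, from 3593 of 11468 in the fit used throughout. They were 3571 of 16746 with DESeq2 and 3522 of 11468 with its size factors. With Rn45s removed they were 3538 of 11481, and with 10 counts in every library 2991 of 9218. The 2 groups fitted alone gave 2967 of 11098, and 1 surrogate variable gave 4732 of 11468. When DMSO Ova of mouse A was left out the 44 genes had 16 higher and 2 lower in Ova and 22 higher and 3 lower in IC. Without that library the median log2 fold change in Ova was 0.31, and Ulk1 (1.41 ± 0.18), Ulk2 (1.04 ± 0.11), Atg101 (0.81 ± 0.16), Atg14 (0.64 ± 0.12), Atg2a (1.07 ± 0.16), Atg12 (0.94 ± 0.12), Atg4b (0.57 ± 0.13), Atg4d (0.99 ± 0.25), Map1lc3b (0.69 ± 0.12), Epg5 (0.61 ± 0.15), Tfeb (-0.97 ± 0.16) and Mitf (-1.39 ± 0.11) kept their calls. Without mouse B 9 of the 44 genes were called in Ova and 13 in IC, without mouse C 10 and 16, and without mouse A 23 and 25.

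**Figure D1:**
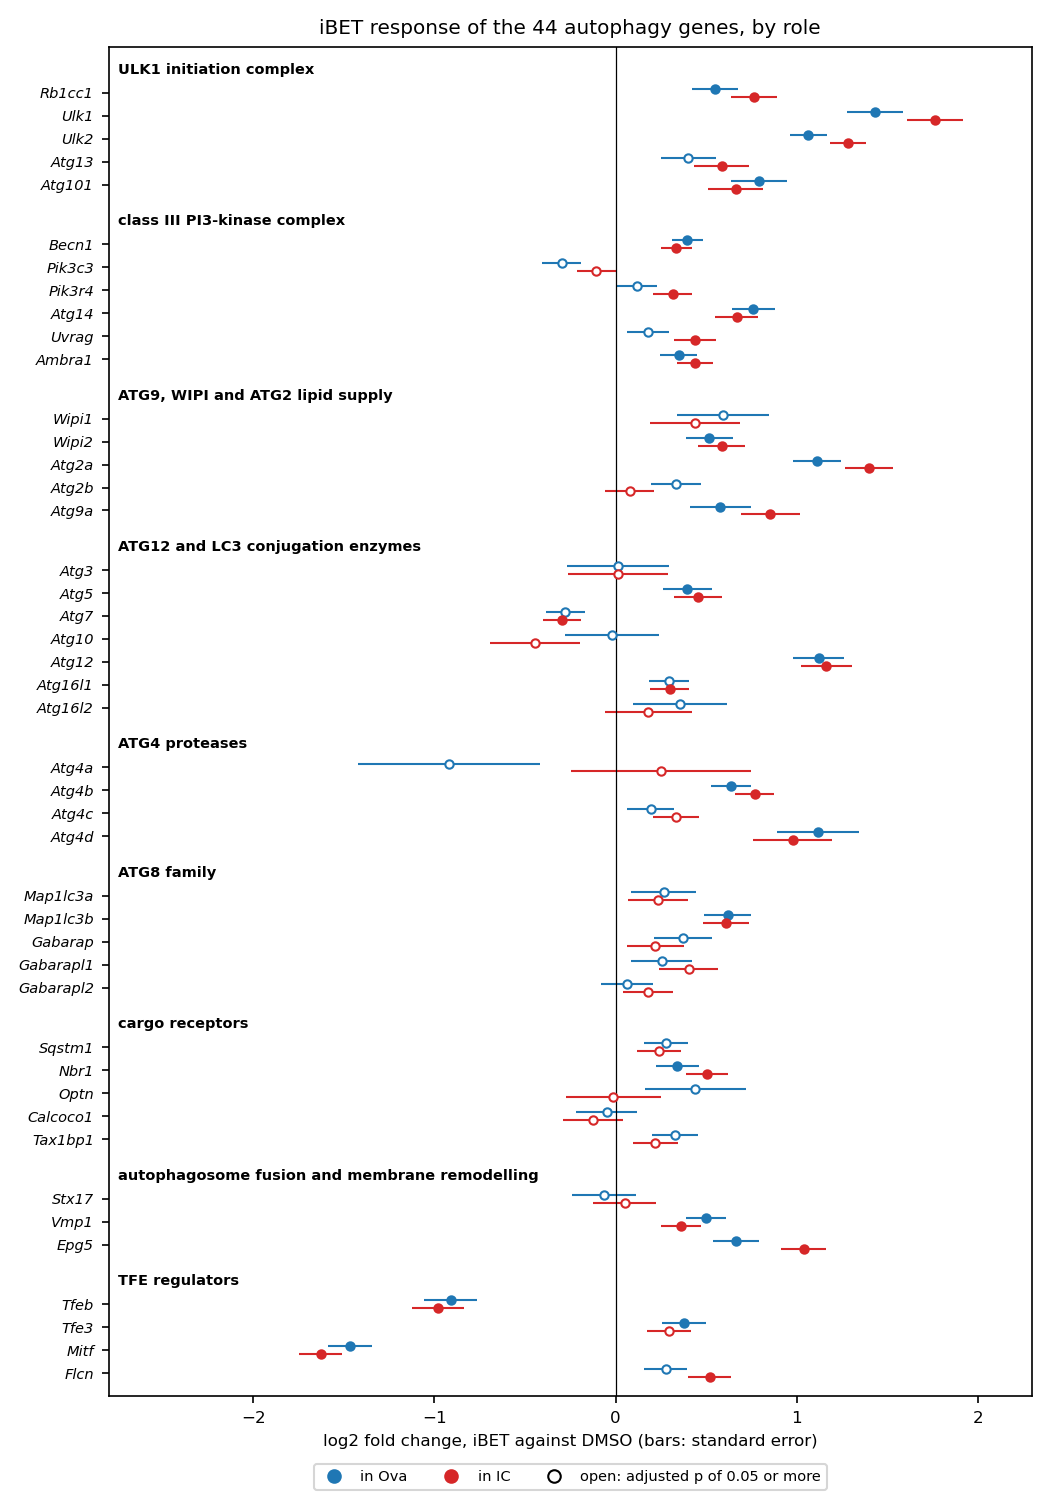
Log2 fold change with iBET against DMSO (x axis) of each of the 44 genes (y axis, grouped by role), in Ova in blue and in IC in red, with bars of 1 standard error. Filled points passed the test at an edgeR adjusted p under 0.05, and Tfeb and Mitf are the only filled points to the left of 0 in both colours.

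Tfeb, which encodes the TFE factor best known as a driver of lysosomal and autophagy genes, fell with iBET in both stimulations. Its level in mice A, B and C was 28.2, 32.3 and 25.3 CPM in DMSO Ova, 16.0, 16.9 and 12.9 CPM in iBET Ova, 27.3, 26.3 and 24.5 CPM in DMSO IC and 13.9, 14.0 and 11.5 CPM in iBET IC. Every iBET library was below every DMSO library of the same stimulation. The log2 fold change was -0.91 ± 0.15 in Ova (standard error, edgeR adjusted p = 0.000573) and -0.98 ± 0.14 in IC (edgeR adjusted p = 0.000252), or 0.533 and 0.506 times the DMSO level.

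Mitf, the melanocyte-inducing member of the same family, fell further. It stood at 141.8, 116.6 and 103.0 CPM in DMSO Ova and at 46.6, 44.4 and 38.6 CPM in iBET Ova. In the IC groups it stood at 130.0, 141.1 and 130.0 CPM with DMSO and at 43.0, 43.9 and 42.9 CPM with iBET, so the 6 libraries with iBET lay in a narrow band far below the 6 with DMSO. The log2 fold change was -1.47 ± 0.12 in Ova (edgeR adjusted p = 4.19e-06) and -1.63 ± 0.12 in IC (edgeR adjusted p = 1.47e-06). The calls of Tfeb and Mitf held in each fit that left out 1 library or 1 mouse.

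Tfe3, the third of the TFE factors described here, did not follow them. Its level was 69.9, 89.3 and 79.8 CPM in DMSO Ova, 108.0, 104.5 and 100.6 CPM in iBET Ova, 81.1, 102.3 and 80.6 CPM in DMSO IC and 108.7, 117.3 and 97.9 CPM in iBET IC. The Ova groups did not overlap and the IC groups did. The log2 fold change of 0.38 ± 0.12 in Ova passed the test (edgeR adjusted p = 0.0329), and that of 0.30 ± 0.12 in IC did not (edgeR adjusted p = 0.0765). The Ova call was lost without 5 single libraries, namely DMSO Ova of mouse A (edgeR adjusted p = 0.168) or C (0.0843) and iBET Ova of mouse A (0.0913), B (0.0781) or C (0.052), and DESeq2 did not make it (DESeq2 adjusted p = 0.0695). With the mouse as a block in the model the IC change passed as well (edgeR adjusted p = 0.0275).

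Flcn, which encodes folliculin, a part of the lysosomal complex that lets mTORC1 act on the TFE factors, was at 29.8, 29.1 and 27.6 CPM in DMSO Ova and at 37.4, 32.6 and 34.2 CPM in iBET Ova. It was at 22.6, 26.3 and 27.7 CPM in DMSO IC and at 33.4, 41.1 and 35.5 CPM in iBET IC. The libraries with iBET were above those with DMSO in both stimulations. The change passed the test in IC, at 0.52 ± 0.12 on the log2 scale (edgeR adjusted p = 0.00452), and not in Ova, at 0.28 ± 0.12 (edgeR adjusted p = 0.101).

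**Figure D2:**
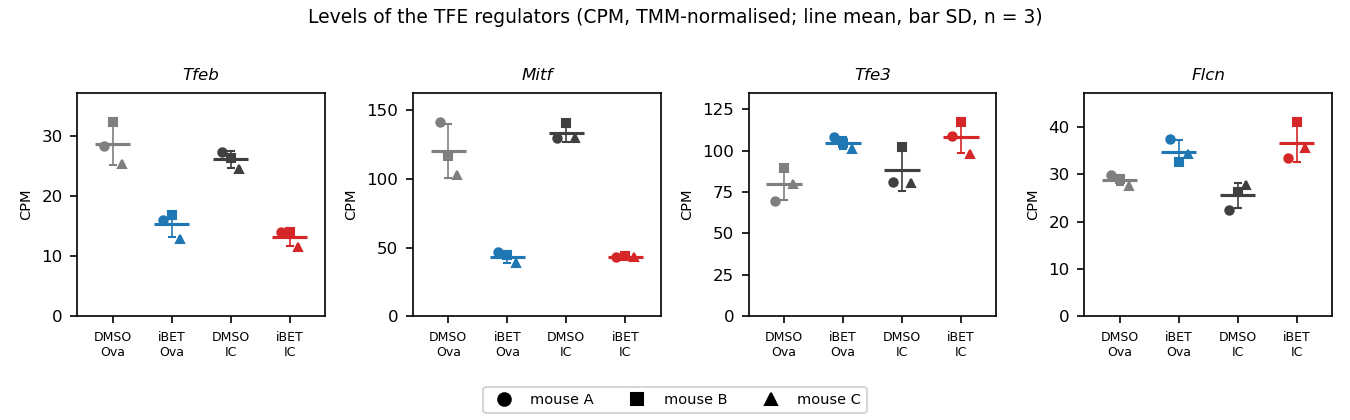
Level (y axis, TMM-normalised CPM from 0) of Tfeb, Mitf, Tfe3 and Flcn in the 4 groups (x axis), 1 point per library with a symbol for each mouse, a line for the mean and a bar for the SD (n = 3). The iBET libraries of Tfeb and Mitf lie below all DMSO libraries, while those of Flcn lie above the DMSO libraries of the same stimulation.

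Because Tfeb and Mitf fell while most called genes of the machinery rose, the E-box core CACGTG was looked for in RefSeq promoters of build GRCm38.p6, from 250 bases before to 50 bases after each start. The core is a palindrome, so 1 search covers both strands, and it is contained in the longer motif TCACGTGA, the centre of the element linked to TFEB. Of the 44 genes, 37 had an entry in the promoter table, with 48 promoters. The core was present in 4 genes (10.8%), Atg3, Atg5, Atg7 and Atg14, against 8.09% of the 27025 genes of the table. Counted by promoter, it was in 8.33% of the 48 and in 7.15% of all 32851 promoters. TCACGTGA was present in 1 of the 37 genes (2.70%), Atg3, against 1.13% of all genes. Of the 14 genes with an entry that were called higher in both stimulations, 2 held the core, Atg5 and Atg14. The windows of 30 bases around each core are shown because these are the promoters with this motif among those searched; capitals mark the core, and all are written in the direction of transcription.
Atg3, chr16:45158723-45158752, plus strand, centred 91 bases before the start: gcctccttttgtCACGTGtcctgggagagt
Atg3, chr16:45158746-45158775, plus strand, centred 68 bases before the start, where the core lies within TCACGTGA: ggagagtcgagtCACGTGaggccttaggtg
Atg5, chr10:44268313-44268342, plus strand, centred 11 bases before the start: cggagcgcttgcCACGTGgtcttggtgacg
Atg7, chr6:114670952-114670981, plus strand, centred 129 bases before a RefSeq start that lies inside the gene as GENCODE draws it (114643097 to 114860614): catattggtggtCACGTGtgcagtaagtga
Atg14, chr14:47568418-47568447, minus strand, centred 2 bases after a RefSeq start that lies inside the gene as GENCODE draws it (47540893 to 47570649): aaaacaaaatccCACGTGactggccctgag
Of these 4 genes Atg5 and Atg14 rose in both stimulations, Atg7 was called lower in IC, and Atg3 was called in neither.

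In the ULK1 initiation complex all 5 genes had higher levels with iBET, 4 of them called in both stimulations and Atg13 in IC alone (0.40 ± 0.15 in Ova, edgeR adjusted p = 0.0636; 0.59 ± 0.15 in IC, edgeR adjusted p = 0.00924). Ulk1, the kinase that starts autophagosome formation (chromosome 5, 110784488 to 110810097, minus strand, mm10), had the largest rise among the 44 genes in both stimulations. Its level was 26.7, 25.8 and 23.5 CPM in DMSO Ova, 72.2, 67.7 and 63.7 CPM in iBET Ova, 14.3, 22.6 and 20.9 CPM in DMSO IC and 57.6, 68.2 and 70.2 CPM in iBET IC. The lowest iBET library, at 57.6 CPM, was far above the highest DMSO library, at 26.7 CPM. That is 2.70-fold in Ova (log2 1.43 ± 0.16, edgeR adjusted p = 3.34e-05) and 3.40-fold in IC (log2 1.77 ± 0.15, edgeR adjusted p = 5.42e-06).

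Ulk2, the paralogous kinase (chromosome 11, 61775649 to 61855073, minus strand), was at 49.8, 46.2 and 47.2 CPM in DMSO Ova and at 110.8, 98.9 and 88.6 CPM in iBET Ova. In the IC groups it was at 32.1, 33.4 and 34.5 CPM with DMSO and at 80.9, 85.4 and 77.1 CPM with iBET. Its DMSO IC libraries were the lowest of all 12, and the iBET libraries stood clear of the DMSO libraries in both stimulations. The rise was 2.09-fold in Ova (log2 1.07 ± 0.10, edgeR adjusted p = 1.17e-05) and 2.43-fold in IC (log2 1.28 ± 0.10, edgeR adjusted p = 2.33e-06).

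Atg101, a small subunit that stabilises ATG13 in the complex, was at 23.1, 20.4 and 17.8 CPM in DMSO Ova and at 33.1, 31.0 and 40.3 CPM in iBET Ova, and at 22.0, 17.3 and 16.9 CPM in DMSO IC and 27.4, 28.8 and 33.1 CPM in iBET IC. Neither pair of groups overlapped. On the log2 scale the rise was 0.79 ± 0.16 in Ova (edgeR adjusted p = 0.00219) and 0.66 ± 0.15 in IC (edgeR adjusted p = 0.00482). Rb1cc1, the scaffold also known as FIP200, rose by 0.55 ± 0.13 in Ova (edgeR adjusted p = 0.00641) and by 0.77 ± 0.13 in IC (edgeR adjusted p = 0.000619) on the log2 scale.

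The class III PI3-kinase complex was less uniform. Of its 6 genes, Becn1, Atg14 and Ambra1 rose in both stimulations, Pik3r4 and Uvrag rose in IC alone, and Pik3c3, the catalytic subunit VPS34, passed in neither (-0.30 ± 0.11 in Ova, edgeR adjusted p = 0.0539; -0.11 ± 0.11 in IC, edgeR adjusted p = 0.471). With the mouse as a block the Ova change of Pik3c3 was called lower (edgeR adjusted p = 0.0454). Atg14, the subunit that directs the complex to autophagy, was at 15.4, 20.6 and 18.6 CPM in DMSO Ova, 31.3, 31.7 and 31.7 CPM in iBET Ova, 17.1, 15.3 and 15.1 CPM in DMSO IC and 24.7, 26.4 and 24.4 CPM in iBET IC. The iBET libraries agreed closely with each other and lay above all DMSO libraries. Atg14 rose by a log2 fold change of 0.76 ± 0.12 in Ova (edgeR adjusted p = 0.000509) and 0.67 ± 0.12 in IC (edgeR adjusted p = 0.000934).

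The other changes in this complex were smaller. Becn1, which encodes the scaffold Beclin 1, rose by 0.40 ± 0.09 in Ova (edgeR adjusted p = 0.00437) and by 0.34 ± 0.09 in IC (edgeR adjusted p = 0.0095), and the IC call did not hold when iBET IC of mouse A was left out (edgeR adjusted p = 0.0507). Ambra1 rose by 0.35 ± 0.10 in Ova and by 0.44 ± 0.10 in IC (edgeR adjusted p = 0.0202 and 0.00476), and its Ova call did not hold without DMSO Ova of mouse A (edgeR adjusted p = 0.114) or iBET Ova of mouse A (0.0636) or B (0.0508). Uvrag rose in IC by 0.44 ± 0.12 (edgeR adjusted p = 0.0107, or 0.0537 when DMSO IC of mouse A was left out). Pik3r4 rose in IC by 0.32 ± 0.11 (edgeR adjusted p = 0.0385), a call that failed on leaving out any of 9 libraries (edgeR adjusted p from 0.0513 to 0.117) and held on leaving out DMSO Ova of mouse A or iBET Ova of mouse A or C.

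Among the genes of membrane and lipid supply, Atg2a, Atg9a and Wipi2 rose in both stimulations, and Wipi1 and Atg2b passed in neither. ATG2A is a lipid transfer protein that bridges the endoplasmic reticulum and the growing membrane, and Atg2a (chromosome 19, 6241668 to 6262335, plus strand) was at 32.4, 30.4 and 33.8 CPM in DMSO Ova and at 74.8, 65.0 and 68.8 CPM in iBET Ova. With IC it was at 19.0, 27.1 and 27.4 CPM in DMSO and at 62.3, 63.3 and 67.8 CPM in iBET. No iBET library was under 62.3 CPM and no DMSO library over 33.8 CPM. The rise was 2.16-fold in Ova (log2 1.11 ± 0.13, edgeR adjusted p = 7.3e-05) and 2.64-fold in IC (log2 1.40 ± 0.13, edgeR adjusted p = 1.07e-05). Its paralogue Atg2b had 0.33 ± 0.14 in Ova (edgeR adjusted p = 0.0892) and 0.08 ± 0.14 in IC (edgeR adjusted p = 0.691), and the Ova change passed with the mouse as a block (edgeR adjusted p = 0.0345).

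Atg9a, the lipid scramblase carried on vesicles to the site, was at 19.0, 23.5 and 20.1 CPM in DMSO Ova and at 31.1, 31.9 and 31.9 CPM in iBET Ova, and at 12.4, 18.8 and 20.6 CPM in DMSO IC and at 29.6, 31.0 and 33.0 CPM in iBET IC. The groups did not overlap in either stimulation. The log2 fold change was 0.58 ± 0.17 in Ova (edgeR adjusted p = 0.0194) and 0.86 ± 0.16 in IC (edgeR adjusted p = 0.00161). The Ova call was lost without DMSO Ova of mouse A (edgeR adjusted p = 0.0743) or C (0.0714) or iBET Ova of mouse B (0.0526). Exons of Atg9a overlap those of Gm29253 on the same strand over 1832 bases, and Gm29253 is not among the symbols counted. Wipi2, which reads the lipid made by VPS34 and recruits ATG16L1, rose by 0.52 ± 0.13 in Ova (edgeR adjusted p = 0.00949, and 0.0542 without DMSO Ova of mouse A) and by 0.59 ± 0.13 in IC (edgeR adjusted p = 0.00373). Wipi1 had 0.59 ± 0.25 in Ova (edgeR adjusted p = 0.0968) and 0.44 ± 0.25 in IC (edgeR adjusted p = 0.19), and the Ova change passed with the mouse as a block (edgeR adjusted p = 0.0177) and without DMSO Ova of mouse A (edgeR adjusted p = 0.0495).

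The 7 genes of the 2 conjugation systems were divided. Atg12, the ubiquitin-like modifier that is joined to ATG5, was at 34.4, 55.1 and 47.4 CPM in DMSO Ova, 109.9, 101.0 and 93.9 CPM in iBET Ova, 40.6, 47.1 and 47.5 CPM in DMSO IC and 102.0, 95.3 and 105.5 CPM in iBET IC. The lowest iBET library was at 93.9 CPM and the highest DMSO library at 55.1 CPM. The rise was 2.18-fold in Ova (log2 1.12 ± 0.14, edgeR adjusted p = 9.89e-05) and 2.24-fold in IC (log2 1.16 ± 0.14, edgeR adjusted p = 5.98e-05). A stretch of 164 bases at 95% identity or more is shared by Atg12 with Syt11, so some reads may be split between them.

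The partner of Atg12 rose less. Atg5 had a log2 fold change of 0.40 ± 0.13 in Ova (edgeR adjusted p = 0.0399) and of 0.46 ± 0.13 in IC (edgeR adjusted p = 0.0179). Its Ova call failed on leaving out any of 8 libraries (edgeR adjusted p from 0.0506 to 0.141), held without DMSO Ova of mouse B, iBET Ova of mouse C, DMSO IC of mouse C or iBET IC of mouse B, and its IC call was lost without DMSO IC of mouse C (0.0668) or iBET IC of mouse A (0.0638) or C (0.0617).

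Atg7, the E1-like enzyme that activates both modifiers, was the gene of this group with a lower call, at -0.29 ± 0.11 in IC (edgeR adjusted p = 0.046) and -0.28 ± 0.11 in Ova (edgeR adjusted p = 0.0663). The IC call failed on leaving out any of 8 libraries (edgeR adjusted p from 0.0548 to 0.158), and it held without DMSO Ova of mouse A, iBET Ova of mouse C, DMSO IC of mouse C or iBET IC of mouse C. Atg16l1, the membrane anchor of the ATG12 conjugate, had 0.30 ± 0.11 in IC (edgeR adjusted p = 0.0477), which was lost without any 1 of 10 libraries (edgeR adjusted p from 0.0529 to 0.203) and held only without DMSO IC of mouse C or iBET IC of mouse C, and 0.29 ± 0.11 in Ova (edgeR adjusted p = 0.062). Atg3, Atg10 and Atg16l2 passed in neither stimulation. The 3 DMSO Ova libraries of Atg3, the E2-like enzyme of LC3 conjugation, were at 109.4, 51.4 and 48.8 CPM, the high value being that of the library rich in Rn45s. Its log2 fold change was 0.01 ± 0.28 in Ova and 0.01 ± 0.28 in IC, and 0.39 ± 0.17 in Ova without that library (edgeR adjusted p = 0.117). Atg3 was called in Ova without mouse A (edgeR adjusted p = 0.0279), and with 1 surrogate variable in Ova (0.0303) and in IC (0.0232).

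The ATG4 proteases, which trim ATG8 proteins before conjugation and release them afterwards, contributed 2 genes that rose in both stimulations. Atg4d (chromosome 9, 21265293 to 21277772, plus strand) was at 7.70, 11.7 and 9.45 CPM in DMSO Ova and at 20.4, 23.0 and 21.5 CPM in iBET Ova, and at 8.00, 12.98 and 15.9 CPM in DMSO IC and at 20.98, 25.4 and 26.4 CPM in iBET IC. Each iBET library was above each DMSO library. That gave a log2 fold change of 1.12 ± 0.23 in Ova (edgeR adjusted p = 0.00275) and 0.98 ± 0.22 in IC (edgeR adjusted p = 0.00403). Exons of Atg4d and of Kri1 on the other strand overlap over 1405 bases, and the strand setting of the counting is not given. Kri1 had lower mean levels with iBET (35.8 and 25.4 CPM in Ova, 37.5 and 23.3 CPM in IC) and passed the test in neither.

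Atg4b, the most active of the proteases on LC3, was at 19.0, 18.2 and 21.2 CPM in DMSO Ova and at 28.6, 32.4 and 30.2 CPM in iBET Ova, and at 16.3, 18.05 and 18.5 CPM in DMSO IC and at 30.4, 29.2 and 30.4 CPM in iBET IC. Again the groups did not overlap. On the log2 scale the rise was 0.64 ± 0.11 in Ova (edgeR adjusted p = 0.00103) and 0.77 ± 0.11 in IC (edgeR adjusted p = 0.000201). Atg4c passed in neither, and Atg4a, at 0.677 to 4.11 CPM and with reads that may be shared with its pseudogene, did not either. The log2 fold change of Atg4a in Ova was -0.92 ± 0.50 (edgeR adjusted p = 0.187), and it was called without iBET Ova of mouse B (edgeR adjusted p = 0.0463).

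Of the ATG8 family only Map1lc3b was called. It encodes LC3B, the usual marker of autophagosomes, and was at 83.7, 60.8 and 68.1 CPM in DMSO Ova, 112.4, 104.8 and 105.5 CPM in iBET Ova, 67.2, 55.7 and 56.2 CPM in DMSO IC and 100.2, 81.6 and 91.4 CPM in iBET IC. Mouse A had the highest level in each group, and the iBET libraries lay above the DMSO libraries of the same stimulation. The rise was 1.54-fold in Ova (log2 0.62 ± 0.13, edgeR adjusted p = 0.003) and 1.53-fold in IC (log2 0.61 ± 0.13, edgeR adjusted p = 0.00262). Exons of Map1lc3b overlap those of Zcchc14 on the other strand over 58 bases, and Zcchc14 was called higher as well (log2 1.20 and 1.08). Map1lc3a, Gabarap, Gabarapl1 and Gabarapl2 had log2 fold changes of 0.06 to 0.37 in Ova and of 0.18 to 0.40 in IC without a call. Gabarapl1 passed in IC with the mouse as a block (edgeR adjusted p = 0.0334). Per kilobase of exon the most abundant of the family in DMSO Ova was Gabarap, at 114 CPM, and Map1lc3b was at 9.43 CPM.

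The cargo receptors were led in level by Sqstm1, which encodes p62 and links ubiquitinated cargo to LC3 (chromosome 11, 50199366 to 50210827, minus strand). At 275 CPM per kilobase in DMSO Ova it had the highest level of the 44 genes, whose median was 6.07 and lowest 0.708. Its level was 923.5, 857.0 and 992.0 CPM in DMSO Ova, 987.0, 1068.8 and 1309.1 CPM in iBET Ova, 1179.1, 1318.2 and 1377.5 CPM in DMSO IC and 1394.9, 1582.9 and 1604.7 CPM in iBET IC. The Ova groups overlapped and the IC groups did not. The log2 fold change with iBET was 0.28 ± 0.12 in Ova (edgeR adjusted p = 0.101) and 0.24 ± 0.12 in IC (edgeR adjusted p = 0.143). With the mouse as a block both passed (edgeR adjusted p = 0.0328 and 0.0484).

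Nbr1, a receptor related to p62, rose by 0.34 ± 0.12 in Ova (edgeR adjusted p = 0.0426) and by 0.50 ± 0.12 in IC (edgeR adjusted p = 0.00521). The Ova call failed on leaving out any of 8 libraries (edgeR adjusted p from 0.0527 to 0.165) and held without DMSO Ova of mouse A, DMSO IC of mouse C or iBET IC of mouse B or C. Optn, Calcoco1 and Tax1bp1 passed in neither stimulation, and Tax1bp1 passed in Ova with the mouse as a block (edgeR adjusted p = 0.028) and without DMSO Ova of mouse A (edgeR adjusted p = 0.0227).

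Among the 3 genes of fusion and membrane remodelling, Epg5 and Vmp1 rose in both stimulations and Stx17, the SNARE of autophagosome fusion, in neither. Epg5, a tether between autophagosomes and lysosomes, was at 34.9, 29.7 and 40.7 CPM in DMSO Ova, 54.2, 58.6 and 54.2 CPM in iBET Ova, 27.7, 32.3 and 32.9 CPM in DMSO IC and 60.04, 61.4 and 69.5 CPM in iBET IC. No iBET library was under 54.2 CPM and no DMSO library over 40.7 CPM. The rise was 1.58-fold in Ova (log2 0.66 ± 0.13, edgeR adjusted p = 0.00187) and 2.05-fold in IC (log2 1.04 ± 0.13, edgeR adjusted p = 6.16e-05). The 2 rises differed by 0.37 ± 0.18 on the log2 scale, which did not pass (edgeR adjusted p = 1.00). Vmp1, a scramblase of the endoplasmic reticulum that overlaps the microRNA gene Mir21a, rose by 0.50 ± 0.11 in Ova (edgeR adjusted p = 0.00508) and by 0.36 ± 0.11 in IC (edgeR adjusted p = 0.0238). The IC call was lost without DMSO IC of mouse B (edgeR adjusted p = 0.0723) or C (0.0716) or iBET IC of mouse A (0.0635) or B (0.0893).

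**Figure D3:**
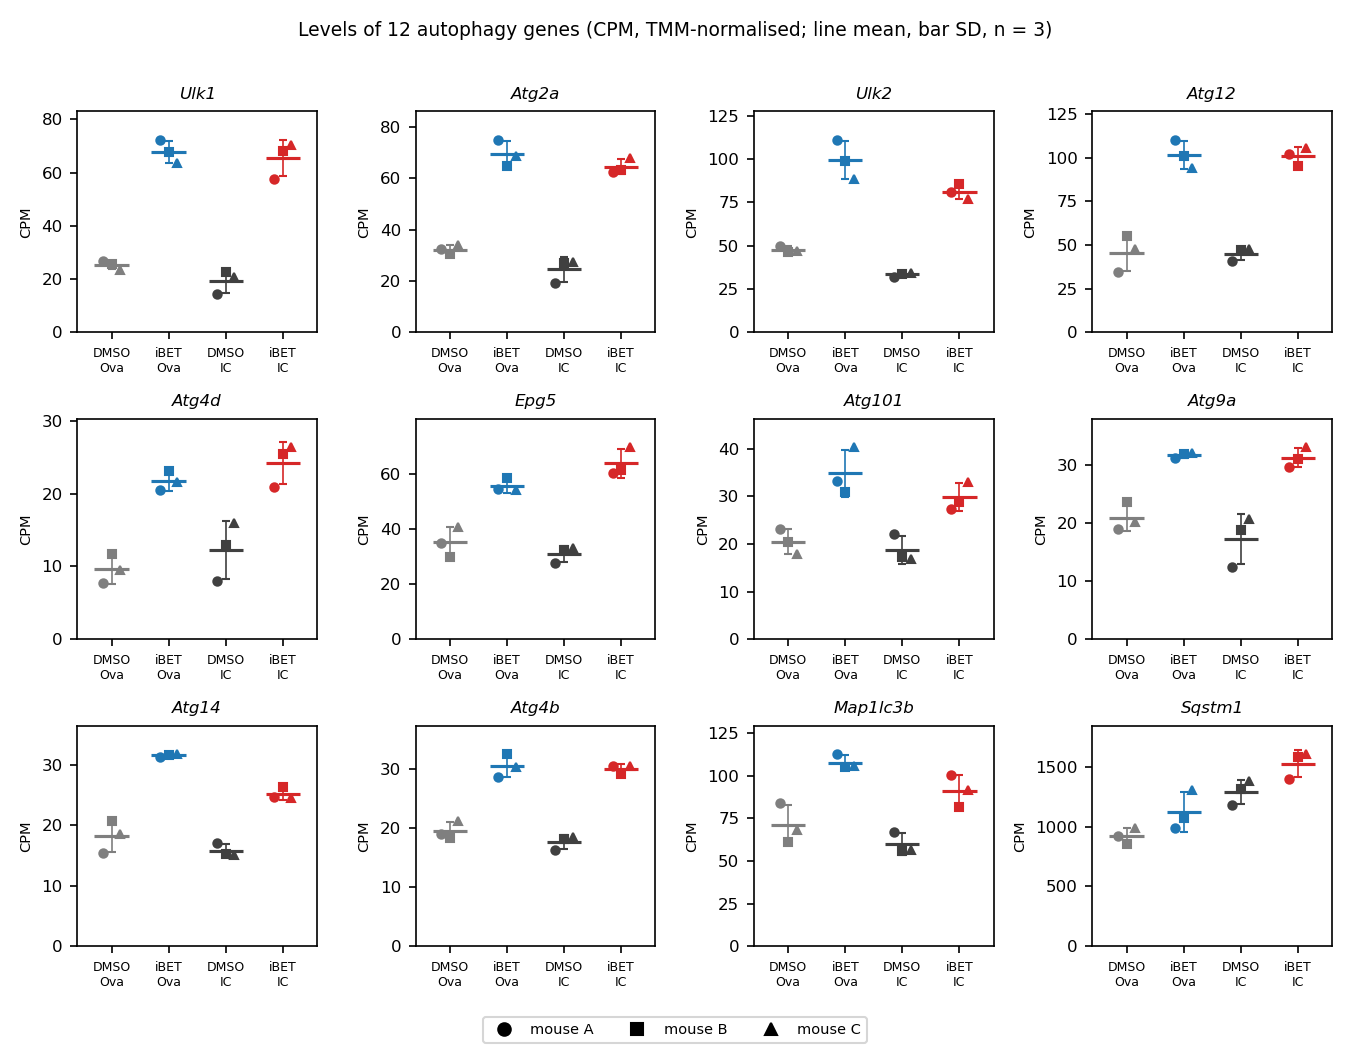
Level (y axis, TMM-normalised CPM from 0) of 12 genes of the machinery in the 4 groups (x axis), 1 point per library with a symbol for each mouse, a line for the mean and a bar for the SD (n = 3). In all panels but that of Sqstm1 the libraries with iBET lie above those with DMSO of the same stimulation in both stimulations.

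Added together, the 44 genes made up 3094 ± 93.0 CPM in DMSO Ova, 3882 ± 81.2 in iBET Ova, 3343 ± 66.7 in DMSO IC and 4140 ± 115 in iBET IC (mean ± SD, n = 3). Sqstm1 alone was 28.8% to 38.6% of these sums. Without it the sums were 2170 ± 111, 2760 ± 87.9, 2051 ± 46.6 and 2613 ± 69.9 CPM. The lowest iBET library, at 2536 CPM, was above the highest DMSO library, at 2278 CPM.

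Fewer of the autophagy genes were called for IC than for iBET. In the DMSO arm 1 of the 44 genes was called for IC against Ova, Ulk2, which fell by 0.51 ± 0.10 on the log2 scale (edgeR adjusted p = 0.0325) to 0.702 times its Ova level, and was lower in all 3 mice. Over all genes 0.732% were called higher and 0.488% lower in this comparison. The call of Ulk2 failed on leaving out any of 10 libraries, with edgeR adjusted p from 0.0514 (without DMSO Ova of mouse A) to 0.114 (without DMSO Ova of mouse B), and held without iBET Ova of mouse A or C. It was also lost with the 2 groups fitted alone. At an unadjusted p under 0.05 there were 8 of the 44 genes, of which 7 were lower with IC (Rb1cc1, Ulk1, Ulk2, Pik3c3, Pik3r4, Atg2a and Nbr1) and Sqstm1 was higher, and 1341 of all 11468 genes. The median log2 fold change was -0.15, against -0.01 over all genes.

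Sqstm1 was 1.40-fold higher with IC in the DMSO arm (log2 0.48 ± 0.12, edgeR adjusted p = 0.0891) and 1.36-fold higher in the iBET arm (log2 0.45 ± 0.12, edgeR adjusted p = 0.247). All 3 mice showed the difference in both arms, and within each arm the libraries with IC did not overlap those with Ova. With the mouse as a block it was called in both arms (edgeR adjusted p = 0.0147 and 0.0445), which made 2 calls among the 44 genes in the DMSO arm and 1 in the iBET arm. Over all 11468 genes the block called 315 in the DMSO arm and 85 in the iBET arm. DESeq2 called 3 of the 44 genes in the DMSO arm, Ulk2 and Rb1cc1 lower and Sqstm1 higher, and 268 of 16746 over all genes.

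In the iBET arm edgeR called 0 of the 44 genes for IC against Ova. DESeq2 also called 0, and 4 had an unadjusted edgeR p below 0.05, as did 860 of all 11468 genes. In this comparison 0.314% of all genes were called higher and 0.0349% lower. Ulk2 had -0.29 ± 0.10 on the log2 scale in this arm (edgeR adjusted p = 0.409). Between arms Ulk2 differed by 0.22 ± 0.14, which did not pass (edgeR adjusted p = 1.00). Tfeb had -0.14 ± 0.14 in the DMSO arm and -0.21 ± 0.15 in the iBET arm, and Mitf had 0.16 ± 0.12 and 0.00 ± 0.12, none of which passed.

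**Figure D4:**
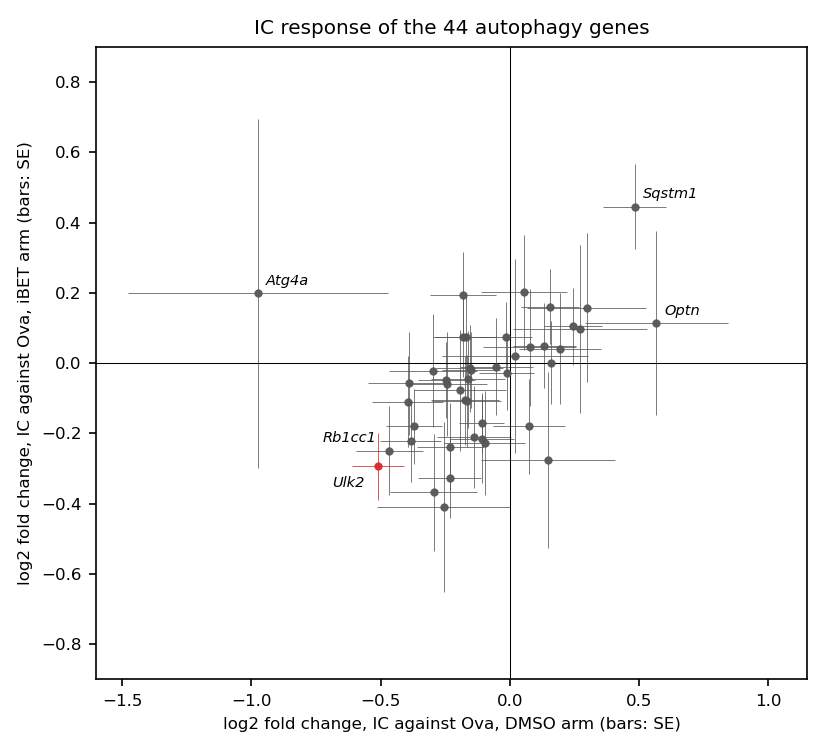
Log2 fold change of IC against Ova of the 44 genes in the DMSO arm (x axis) and in the iBET arm (y axis), 1 point per gene with bars of 1 standard error. Ulk2, in red, is the gene with a call in the DMSO arm, and Sqstm1 is at 0.48 and 0.45.

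Genes that act beside the 44 were described from 5 lists of known members. In the list of mTORC1 and AMPK nutrient sensing, 10 of 42 tested genes were higher and 6 lower with iBET in Ova, and 15 were higher and 5 lower in IC. That is 23.8% higher and 14.3% lower in Ova, and 35.7% and 11.9% in IC. Over all genes tested the shares were 17.1% and 14.2% in Ova and 19.0% and 15.8% in IC. The lower share of the list in Ova was thus near that of all genes. The 15 higher genes in IC became 10 without DMSO IC of mouse A. They became 11 without iBET IC of mouse C and 12 without that of mouse B. The 10 in Ova became 8 without iBET Ova of mouse A or of mouse C. Sesn3, a sestrin that restrains mTORC1, rose from 4.78 ± 3.86 to 20.7 ± 0.92 CPM in Ova and from 1.92 ± 0.47 to 19.3 ± 1.90 CPM in IC (mean ± SD, n = 3), with log2 fold changes of 2.55 ± 0.35 and 3.32 ± 0.35 (edgeR adjusted p = 0.000195 and 2.23e-05). Ddit4, an mTORC1 inhibitor induced by stress, rose by 2.16 ± 0.46 and 1.31 ± 0.38, from 0.655 ± 0.390 CPM in DMSO Ova and 1.03 ± 0.163 CPM in DMSO IC, and Tbc1d7, a subunit of the TSC complex that also restrains mTORC1, fell by 1.94 and 1.16 on the log2 scale. The IC call of Ddit4 was lost without DMSO IC of mouse A (edgeR adjusted p = 0.0756) or iBET IC of mouse C (0.0746), and that of Tbc1d7 without iBET IC of mouse A (0.0633) or B (0.0517). The genes that moved in this list thus included inhibitors of mTORC1 in both directions.

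In the list of other core autophagy and tethering genes, 9 of 27 (33.3%) were higher and 1 lower in Ova and 11 (40.7%) were higher in IC. Of these, 7 were called higher in both. Over all genes tested 17.1% were higher in Ova, 19.0% in IC and 14.3% in both. The 9 became 5 without iBET Ova of mouse A or of mouse C. Trp53inp1 and Trp53inp2, related proteins that bind ATG8 proteins, rose by 1.21 ± 0.19 and 1.04 ± 0.18 in Ova and by 1.47 ± 0.19 and 1.30 ± 0.18 in IC, and Rab33b, a GTPase that binds ATG16L1, by 1.10 ± 0.14 and 1.20 ± 0.14. In selective autophagy and mitophagy 4 of 20 (20%) were higher and 1 lower in Ova, and 6 (30%) were higher and 1 lower in IC. The higher share in Ova was near that of all genes. The mitochondrial receptor Bnip3 rose by 0.79 ± 0.16 and 0.75 ± 0.15, the ubiquitin-binding adaptor Tollip by 0.63 ± 0.13 and 0.73 ± 0.12, and the mitophagy receptor Fundc1 fell by 0.87 and 0.96.

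Among 12 other transcriptional regulators of autophagy genes, 6 (50%) were higher and 1 lower in Ova and 5 (41.7%) were higher and 1 lower in IC. Over all genes tested 17.1% were higher in Ova and 19.0% in IC. Foxo1 and Foxo3, forkhead factors known to activate autophagy genes, rose by 1.13 ± 0.15 and 0.98 ± 0.11 in Ova and by 1.03 ± 0.14 and 1.01 ± 0.11 in IC. Tfec, the remaining member of the TFE family, fell as Tfeb and Mitf did, from 7.34 ± 2.05 to 1.34 ± 0.31 CPM in Ova and from 8.21 ± 1.79 to 1.94 ± 0.76 CPM in IC (log2 fold changes of -2.39 ± 0.34 and -2.05 ± 0.31, edgeR adjusted p = 0.000236 and 0.000283). Without DMSO Ova of mouse A the Ova changes of Sesn3 and Tfec were 2.96 ± 0.20 and -2.35 ± 0.35. So 3 of the 4 genes of that family were lower with iBET in both stimulations.

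Over all genes tested 17.1% were higher with iBET in Ova, 19.0% in IC and 14.3% in both. Of 31 lysosomal genes linked to TFEB, 10 (32.3%) were higher and 1 lower in Ova. In IC 12 (38.7%) were higher and 1 lower, with 8 higher in both. These counts depended on single libraries: the 10 became 3 without DMSO Ova of mouse A, 6 without that of mouse B, 5 without that of mouse C, 3 without iBET Ova of mouse A and 4 without that of mouse B, and the 12 became 7 without DMSO IC or iBET IC of mouse A. Neu1, a lysosomal sialidase, rose by 0.87 ± 0.12 and 0.92 ± 0.11. Cln3, a lysosomal membrane protein, fell by 0.55 and 0.63, with the Ova call lost without iBET Ova of mouse A (edgeR adjusted p = 0.0664). The median log2 fold change of this list was 0.27 in Ova (0.20 without DMSO Ova of mouse A) and 0.33 in IC. In IC against Ova, the 1 call in the DMSO arm over the 5 lists was Sesn1 of the nutrient-sensing list, which fell by 0.89 on the log2 scale (edgeR adjusted p = 0.0305). That call failed on leaving out any of 6 libraries, namely DMSO Ova of mouse A (edgeR adjusted p = 0.0535) or B (0.151), iBET Ova of mouse B (0.0613), DMSO IC of mouse A (0.0827) or C (0.117) or iBET IC of mouse A (0.0535).

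**Figure D5:**
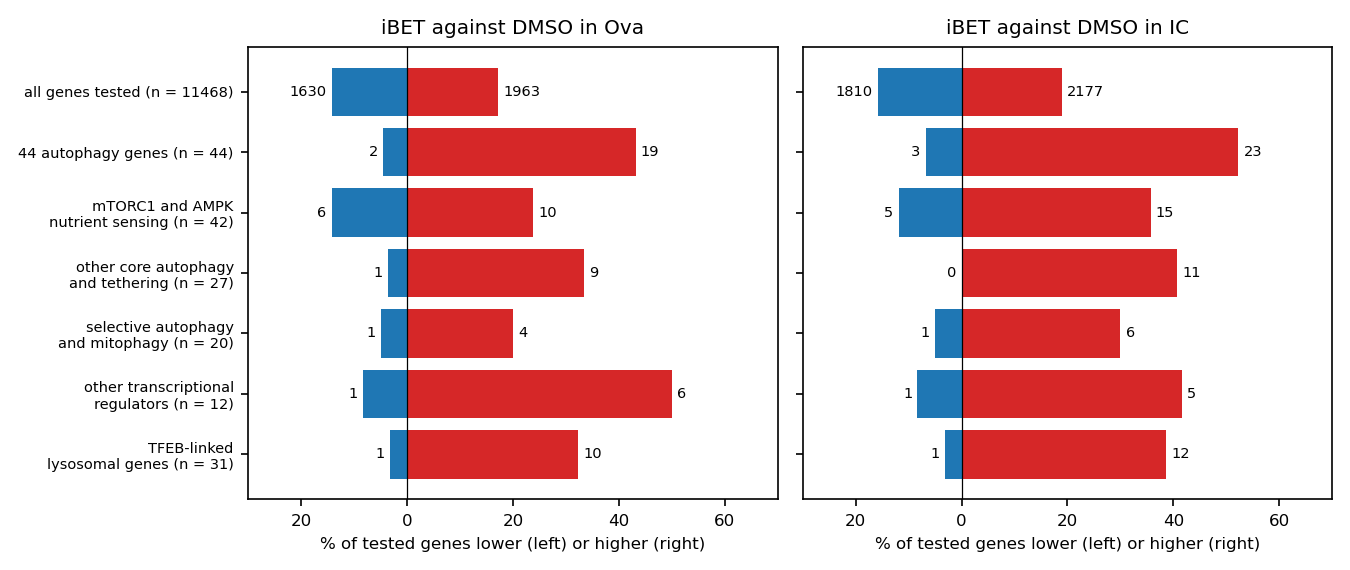
Share of tested genes (x axis, percent) called higher (red, right) or lower (blue, left) with iBET in Ova and in IC, for all genes tested, the 44 autophagy genes and the 5 lists of related genes (y axis, with the number tested), with the number of genes beside each bar. The 44 genes have 19 and 23 genes to the right and 2 and 3 to the left, and the nutrient-sensing list has the longest left bars of the 5 lists in both panels.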

How the data were processed

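RNA was measured in 12 BMDM libraries (3 mice by 4 groups), prepared per the labels with a SMARTer pico-input total RNA kit. The submitters' processing notes and the methods of the study name CASAVA, Trim Galore, FastQC, HISAT2 (build mm10) and featureCounts; versions, gene annotation, strand setting and the handling of multiply aligned reads are not given in the sources used here. The authors deposited raw gene counts, which are used here; their normalised values of the same libraries were not used. Counts were fitted with edgeR 4.0.16 in R 4.3.3 (quasi-likelihood, robust, TMM, default filterByExpr with a count minimum of 10, 1 term per group over all 12 libraries), with Benjamini-Hochberg adjustment over 11468 genes and a threshold of 0.05. The ± values of fold changes are standard errors (the log2 fold change over the square root of F). Levels are TMM-normalised CPM. They are relative, so a change in total RNA per cell would not be seen. Depth was 7549849 to 17387639 counts, and 43 of the 44 genes had 10 or more counts in every library.

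Members and lists were chosen with earlier results of these data known. Values of every library are given for the 12 genes with the largest mean change among those called in both stimulations, for genes called for IC, and for Tfeb, Tfe3, Mitf, Flcn, Map1lc3b, Sqstm1 and Ulk1. From each related list up to 3 genes are named by the same ranking. A gene that this ranking names is not reported here. Groups come from the sample titles, and the mouse letter in the labels pairs libraries across groups. After removal of group means, 18 same-mouse pairs of libraries correlated at r of -0.07 to 0.54 (median 0.26, 12 over 0.1) and 36 different-mouse pairs at -0.50 to 0.27 (median -0.13). With the means removed, a positive r in same-mouse pairs forces different-mouse pairs towards a negative r. The values of the different-mouse pairs are therefore not a separate sign of pairing. Positions and exon overlaps are from GENCODE vM21 (mm10), and near-identical stretches of 150 bases or more at 95% identity were found with BLAST 2.17.0. Exons of 13 of the 44 genes overlap a gene on the other strand, and those of 2 (Atg9a and Vmp1) overlap a gene on the same strand. A near-identical stretch elsewhere was found for 5 (Uvrag, Map1lc3b, Atg12, Atg4a and Gabarapl2). Alternatives were DESeq2 1.42.0, its size factors, other filters, the mouse as a block, Rn45s removed, 1 surrogate variable from sva 3.50.0, a fit of only the groups compared, and each library or mouse left out.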

Additional observations from a re-analysis of the deposited data

How the results depend on the processing

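No gene called with iBET changed direction under any alternative. With each library left out in turn, or each mouse, the number of genes called ran from 9 to 23 in Ova (21 with all libraries) and from 13 to 25 in IC (26 with all libraries). The counts that moved by more than 1.5 times were those without mouse B and without mouse C. They were 9 and 10 in Ova and 13 and 16 in IC. These fits hold fewer libraries, as does the fit without mouse A (23 in Ova, 25 in IC), and the cause was not tested. Of the called genes, 15 of 21 in Ova and 19 of 26 in IC kept the call without any 1 library, and 7 (Ulk1, Ulk2, Atg14, Atg2a, Atg12, Tfeb and Mitf) and 11 also without any 1 mouse. For IC against Ova in the DMSO arm the 1 call became 3 with DESeq2 and 2 with the mouse as a replicate block. It became 6 with 1 surrogate variable and 0 with the 2 groups fitted alone. With libraries or mice left out it ran from 0 to 1, and the cause was not tested. Over all genes the 140 calls in that arm became 268 with DESeq2 and 315 with the block. They became 504 with 1 surrogate variable and 5 with the 2 groups fitted alone. In the iBET arm the 0 calls became 1 with the mouse as a replicate block, and over all genes 40 became 85. That block gave 26 calls in Ova and 30 in IC, adding 5 and 4 genes and removing 0. Over all genes it raised the calls from 3593 to 4387 in Ova and from 3987 to 4829 in IC. Beyond the genes named with it, Atg4c was added in IC. The interaction gave 0 calls in every fit run (a fit of only the groups compared is the same model there and was not run). With TCACGTGA in place of CACGTG the promoter motif was held by 1 gene in place of 4. Depth limits the DMSO Ova group most, through the library of mouse A with 6233 counts for the 44 genes.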
